A study of Mus musculus with 20 samples.

Results

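The tripartite-motif (TRIM) genes were followed in primary cultures of mouse renal tubular epithelial cells. Members were all gene IDs whose symbol is Trim, a number and at most 1 further letter, which gave 68 of the 55891 IDs in the count table. Levels played no part in this symbol rule, though earlier results of these data were known when the members were chosen. Of the 68 members, 15 were silent (at most 3 counts in any library), 10 were counted too rarely to be tested, and 43 were tested, of which 42 also passed the filter on low counts over all 20 libraries.

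TRIM proteins typically start with a RING finger, B-box zinc fingers and a coiled coil, and most act as ubiquitin ligases. The end of the protein differs between branches of the family and sets what is bound: a PRY-SPRY domain in many antiviral members, a PHD finger with a bromodomain in chromatin regulators, NHL repeats in members that bind RNA or cytoskeletal proteins, and a COS box in members that associate with microtubules. Several members are themselves interferon-stimulated, and some tag or stabilise the sensors and adaptors through which cells detect viral nucleic acid. In the kidney, tubular epithelium is exposed to interferon and bacterial products during infection, transplantation and injury.

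The 4 groups of 5 libraries were, by their labels, knockout (KO) cells given LPS at 100 ng/mL with IFNγ at 10 ng/mL for 24 h, heterozygous (het) cells given the same, untreated KO cells and untreated het cells. LPS, a bacterial product, activates Toll-like receptor 4, and IFNγ is a cytokine of activated lymphocytes. All animals carried the strain label B6.129-Ptprz1tm1Nmo, a targeted allele of the receptor tyrosine phosphatase gene Ptprz1. The het cells, not wild-type cells, were therefore the comparator, and both genotypes carry at least 1 targeted allele. The labels name 10 animals, of which 8 gave a control and a stimulated library of the same genotype. Animals 5 and 7 are listed under both genotypes. Beyond the animal, the labels do not tell how cultures were divided, and the tests see the variation among libraries, part of which may be technical.

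Libraries held 12899528 to 20411411 counts, with a median of 17431039. Levels are in CPM, the count scaled to a common library size by the library total and a TMM factor of 0.939 to 1.13, and are compared between samples but not between genes. A count of 0 allows a level of up to 0.134 to 0.219 CPM by counting error. Ptprz1 had 0 to 7 counts in KO and 0 to 4 counts in het stimulated libraries, and 0 to 6 counts in KO and 0 to 4 counts in het control libraries, so it could not check the genotype labels at this depth. The epithelial marker Pax8 was present in every library and Lrp2 ran from 18 to 232 CPM. Krt8, Cdh1 and Epcam, also epithelial markers, were low in all libraries of animals 2, 6 and 10. There they ran from 1.13 to 7.15, 0.365 to 1.72 and 0.146 to 0.935 CPM, in that order. In the libraries of the other animals they ran from 56.2 to 371, 18.8 to 200.5 and 14.0 to 75.9 CPM. Whether this difference bears on the TRIM levels was not tested. The proximal tubule transporters Slc34a1, Slc5a2 and Slc22a6 were at or below 0.767 CPM, and the collecting duct channel Aqp2 had counts in 1 library. Summed leukocyte markers (9 genes) reached 65.9 and 196 CPM in stimulated and 78.8 and 299 CPM in control het replicates 1 and 4 (animals 1 and 9). They were 4.23 to 21.7 CPM in all other libraries, with the T-cell gene Cd3e at 0 throughout. Fibroblast markers (7 genes) were 12739 and 14694 CPM in the libraries of animal 7 and 33.4 to 5220 CPM elsewhere.

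4 libraries, all of animals 4 and 8, went against their labels. Over 6 genes known to follow IFNγ and LPS (Nos2, Gbp2, Tap1, Irf1, Cxcl9 and Cxcl10), the summed level was 75.5 CPM in KO LPS+IFNγ replicate 4 and 58.7 CPM in het LPS+IFNγ replicate 5, against 6754 to 18697 CPM in the other 8 stimulated libraries. It was 2473 CPM in KO control replicate 4 and 942 CPM in het control replicate 5, against 52.1 to 81.2 CPM in the other 8 control libraries. Results are given for all 20 libraries as labelled and for the 16 libraries without animals 4 and 8. These 4 libraries were singled out by interferon-induced genes, so the 16-library calls rest on a choice that favours a difference between stimulated and control cells.

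Over the 16 libraries, every TRIM member that passed the test after stimulation rose, and none fell. In KO cells 11 of 43 tested members rose and 0 fell, and in het cells 13 of 43 rose and 0 fell (edgeR's quasi-likelihood test, Benjamini-Hochberg adjusted p under 0.05 over all 14630 genes tested). Of all genes tested, 5.76% were called in KO cells (4.81% higher and 0.95% lower) and 7.15% in het cells (5.67% higher and 1.48% lower). The 11 members called in both genotypes were Trim5, Trim12a, Trim12c, Trim21, Trim25, Trim26, Trim30a, Trim30c, Trim30d, Trim34a and Trim56. Trim14 and Trim34b were called in het cells alone. The median log2 fold change of tested members was 0.17 in KO and 0.07 in het cells, against −0.01 and −0.03 over all genes tested.

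Over the 20 libraries as labelled, 0 members passed the same test in either genotype, and 0% of all 14568 genes did. With unadjusted p under 0.05 there were 13 members in KO cells (12 higher, 1 lower) and 15 in het cells (15 higher), against 8.97% and 13.6% of all genes. The smallest adjusted p of a member was 0.321 in KO cells (Trim21) and 0.105 in het cells (Trim12a). DESeq2 on the same 20 libraries called 5 members in KO cells and 12 in het cells, all higher. Among all genes it called 0.789% in KO cells (0.755% higher, 0.0343% lower) and 3.32% in het cells (2.99% higher, 0.329% lower). On the 16 libraries DESeq2 called 13 members higher in each genotype, Trim14 and Trim15 being added in KO cells, against 9.03% of all genes in KO cells (6.49% higher, 2.54% lower) and 11.4% in het cells (7.81% higher, 3.64% lower).

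**Figure D1:**
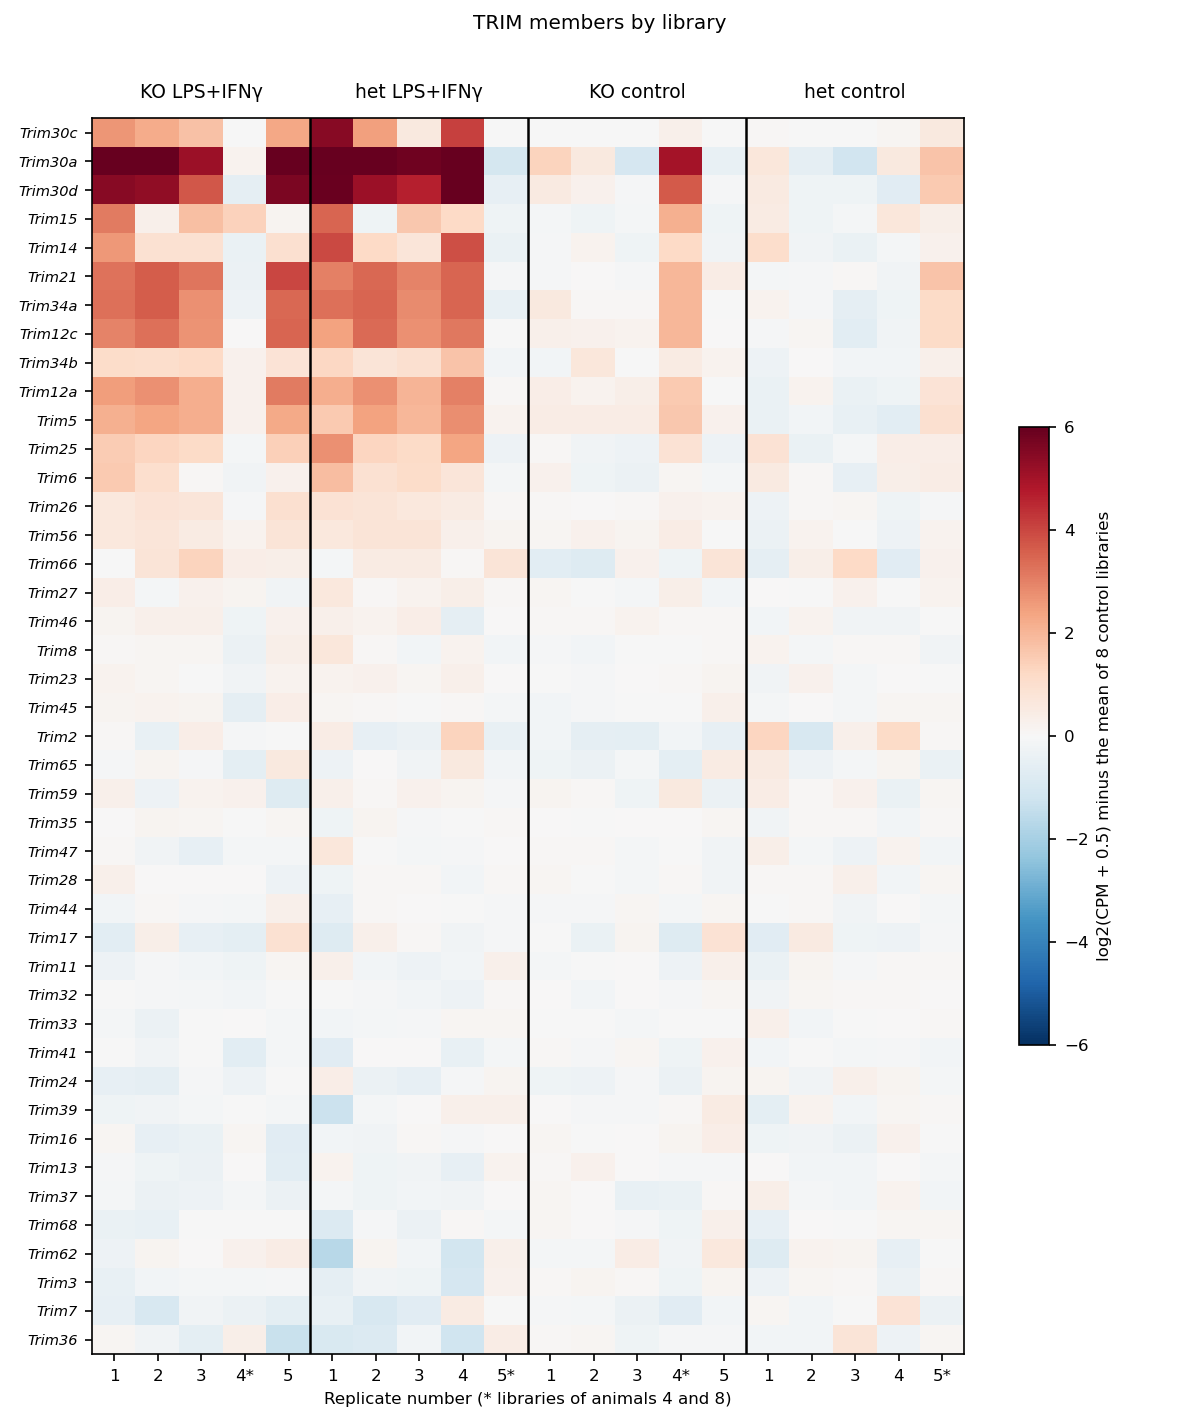
Level of the 43 tested TRIM members (rows, ordered by their mean response) in each of 20 libraries (columns), as log2(CPM + 0.5) minus the mean of the 8 control libraries of animals other than 4 and 8. Colours stop at ±6. The upper rows are red in 8 of 10 stimulated libraries, the starred stimulated libraries of animals 4 and 8 are near white there apart from Trim15, and their starred control libraries are red to pale red in most of these rows.

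The largest group of rising members was the Trim5-related group, 10 related genes in 1 cluster on mouse chromosome 7, with a few other annotated genes between them, in the order Trim6, Trim34a, Trim5, Trim12a, Trim34b, Trim12c, Trim30b, Trim30c, Trim30a, Trim30d. Most of them encode a PRY-SPRY domain, which the short mouse Trim12a protein lacks. In primates the single gene TRIM5 encodes a factor that binds incoming retroviral capsids, and Trim5, Trim12a, Trim12c and the Trim30 genes are its multiplied counterparts in the mouse. Of the 9 tested genes of this group 7 rose in KO cells and 8 rose in het cells. Their median log2 fold change was 2.94 in KO and 3.57 in het cells.

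Trim30a (ENSMUSG00000030921), which in mouse macrophages restrains NF-κB signalling by removing the TAB2 and TAB3 adaptors, was nearly absent from most controls and high in most stimulated libraries. It had 234, 223, 51.7, 1.23 and 287 CPM in KO LPS+IFNγ replicates 1 to 5 and 487, 202, 83.6, 489 and 0.208 CPM in het LPS+IFNγ replicates 1 to 5. In controls it had 3.26, 1.68, 0.234, 46.5 and 0.584 CPM in KO and 1.83, 0.510, 0.164, 1.69 and 4.34 CPM in het replicates 1 to 5. Leaving aside animals 4 and 8, the lowest stimulated library was above the highest control library, and the highest stimulated library was 9.47-fold above the lowest. Its log2 fold change was 7.08 ± 0.93 (SE) in KO cells (adjusted p = 0.000163) and 8.18 ± 0.98 in het cells (adjusted p = 6.26e-05) over 16 libraries, 4 in each group. With all 20 libraries it was 3.93 ± 1.51 and 7.2 ± 1.78, with adjusted p = 0.411 and 0.105. The highest values, 487 and 489 CPM, came from animals 1 and 9, whose libraries had the highest leukocyte marker sums. The part of leukocyte RNA in this and the members below was not tested, and without animals 1 and 9 the het value was 8.75 ± 1.27 (adjusted p = 0.00220). In bulk RNA, fewer cells of a type and less RNA per cell cannot be told apart.

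Trim30d (ENSMUSG00000057596), its neighbour, ranked the 8 stimulated libraries in the same order. Levels were 74.4, 66.9, 22.0, 0.647 and 84.0 CPM in KO and 103, 57.6, 42.1, 136 and 0.677 CPM in het stimulated replicates 1 to 5. Controls held 1.92, 1.52, 1.11, 20.8 and 1.09 CPM in KO and 1.92, 0.893, 0.929, 0.563 and 4.5 CPM in het replicates 1 to 5. The 8 stimulated and 8 control libraries did not overlap, and KO replicate 3 was the lowest stimulated library for both Trim30a and Trim30d. The log2 fold change was 5.44 ± 0.53 in KO and 6.27 ± 0.55 in het cells (adjusted p = 8.57e-06 and 2.60e-06), against 3.23 ± 1.17 and 5.26 ± 1.29 over 20 libraries (adjusted p = 0.391 and 0.105).

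Trim30c and Trim30b were counted almost only after stimulation. Trim30c (ENSMUSG00000078616) had 2.70, 1.93, 1.23, 0 and 2.09 CPM in KO and 22.4, 2.27, 0.260, 8.15 and 0 CPM in het stimulated replicates 1 to 5. KO controls had 0 CPM except 0.125 CPM in replicate 4, and het controls had 0.0446, 0, 0, 0.0512 and 0.278 CPM. Over 4 libraries a group, 136 counts in stimulated KO cells stood against 0 in KO controls, which is at least 43.9-fold higher when the controls are set at 3 counts over the group. In het cells 542 counts stood against 2, a ratio of 314 with an exact 95% interval of 86.4 to 2596 that covers counting error only. The adjusted p was 0.0122 in KO and 0.00361 in het cells, and 0.321 and 0.105 over 20 libraries. Without animals 1 and 9, which held the highest values, the het call was lost (adjusted p = 0.0702), with 2 het libraries a state left, whose controls both had 0 counts. Trim30b was not tested. It had 16 counts in stimulated KO and 28 counts in stimulated het libraries against 0 in the controls of either genotype, at least 5.16-fold and at least 10.8-fold higher.

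Trim12c (ENSMUSG00000057143) was higher in every stimulated library outside animals 4 and 8 than in any control. Levels were 252, 317, 211, 32.2 and 362 CPM in KO and 174, 339, 220.5, 288 and 31.6 CPM in het stimulated replicates 1 to 5. In controls they were 39.7, 38.5, 37.6, 129.6 and 33.0 CPM in KO and 30.3, 35.1, 20.2, 27.4 and 72.0 CPM in het replicates 1 to 5. Stimulated libraries of animals 4 and 8 sat at the level of the other controls, and their control libraries sat between the other controls and the other stimulated libraries. The log2 fold change was 2.94 ± 0.23 in KO and 3.18 ± 0.24 in het cells (adjusted p = 8.52e-07 and 4.01e-07), against 2.08 ± 0.62 and 2.51 ± 0.63 over 20 libraries (adjusted p = 0.321 and 0.105).

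Trim12a (ENSMUSG00000066258) showed the same split. After stimulation, replicates 1 to 5 had 85.1, 103, 68.5, 17.7 and 131 CPM in KO and 68.7, 103, 61.7, 122 and 15.4 CPM in het cells. Control replicates 1 to 5 had 19.4, 17.2, 18.8, 44.8 and 14.6 CPM in KO and 10.9, 17, 11, 12.3 and 26.6 CPM in het cells. Without animals 4 and 8 the groups did not overlap, and the log2 fold change was 2.47 ± 0.25 in KO and 2.80 ± 0.25 in het cells (adjusted p = 1.19e-05 and 3.38e-06). With all 20 libraries it was 1.82 ± 0.51 and 2.25 ± 0.52 (adjusted p = 0.321 and 0.105).

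Trim5 (ENSMUSG00000060441) rose in both genotypes. Levels in stimulated replicates 1 to 5 were 9.88, 11.4, 10.0, 2.33 and 10.8 CPM in KO and 6.49, 11.9, 8.73, 15.4 and 2.24 CPM in het cells. Control replicates 1 to 5 had 2.68, 2.71, 2.63, 6.74 and 2.33 CPM in KO and 1.29, 1.59, 1.2, 1.02 and 4.06 CPM in het cells. Without animals 4 and 8, KO controls ran from 2.33 to 2.71 CPM and het controls from 1.02 to 1.59 CPM. The stimulated KO libraries fell within the range of the stimulated het libraries. How many of all genes were split between genotypes in this way was not counted. KO control replicate 2 (animal 5) and het control replicate 3 (animal 7) came from animals listed under both genotypes. The log2 fold change was 2.02 ± 0.24 in KO and 3.05 ± 0.25 in het cells (adjusted p = 5.92e-05 and 1.31e-06), against 1.38 ± 0.51 and 2.28 ± 0.53 over 20 libraries (adjusted p = 0.398 and 0.105).

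Trim34a (ENSMUSG00000056144) rose in both genotypes, and its near copy Trim34b was called in het cells alone. Trim34a had 61.6, 78.0, 42.9, 4.72 and 68.2 CPM in KO and 61.8, 72.1, 45.0, 71.3 and 4.17 CPM in het stimulated replicates 1 to 5. Its controls had 9.20, 6.17, 6.31, 24.7 and 5.69 CPM in KO and 6.78, 5.55, 3.88, 4.76 and 13.5 CPM in het replicates 1 to 5. The 8 stimulated libraries were all above the 8 controls, and the log2 fold change was 3.19 ± 0.24 in KO and 3.57 ± 0.24 in het cells (adjusted p = 4.67e-07 and 1.62e-07), against 2.29 ± 0.69 and 2.88 ± 0.71 over 20 libraries (adjusted p = 0.321 and 0.105). Trim34b (ENSMUSG00000090215) had at most 1.53 CPM. Its stimulated replicates 1 to 5 had 0.861, 0.783, 0.950, 0.259 and 0.596 CPM in KO and 0.970, 0.554, 0.716, 1.53 and 0.0521 CPM in het cells, against controls at 0.0582, 0.487, 0.117, 0.375 and 0.219 CPM in KO and 0, 0.128, 0.0546, 0.0512 and 0.278 CPM in het cells. It rose in het cells (3.94 ± 0.72, adjusted p = 0.00285), and in KO cells its log2 fold change of 1.81 ± 0.62 missed the threshold (adjusted p = 0.124). Over 20 libraries the values were 1.43 ± 0.72 in KO and 2.85 ± 0.78 in het cells (adjusted p = 0.583 and 0.119), and without animals 1 and 9 the het call was lost (2.74 ± 0.88, adjusted p = 0.133).

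Trim6, a ligase that builds free ubiquitin chains in interferon signalling, was the tested gene of the cluster that passed in neither genotype. Its log2 fold change was 1.5 ± 0.54 in KO and 1.46 ± 0.53 in het cells (adjusted p = 0.149 and 0.123). Stimulated libraries outside animals 4 and 8 ran from 0.670 to 3.45 CPM and controls from 0.273 to 1.12 CPM, so the states overlapped.

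Single values within the cluster are uncertain where transcripts share sequence. Of the 31-base stretches in Trim34b transcripts 69.1% also occurred in Trim34a, and of those in Trim34a 48.7% occurred in Trim34b (GENCODE M21). Trim12c shared 38.7% with Trim5, and Trim5 shared 37.9% with Trim12c. Trim30a shared 8.53% with Trim30d, and Trim30d shared 9.19% with Trim30a. How reads that match several genes were divided was set by the authors' quantification.

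**Figure D2:**
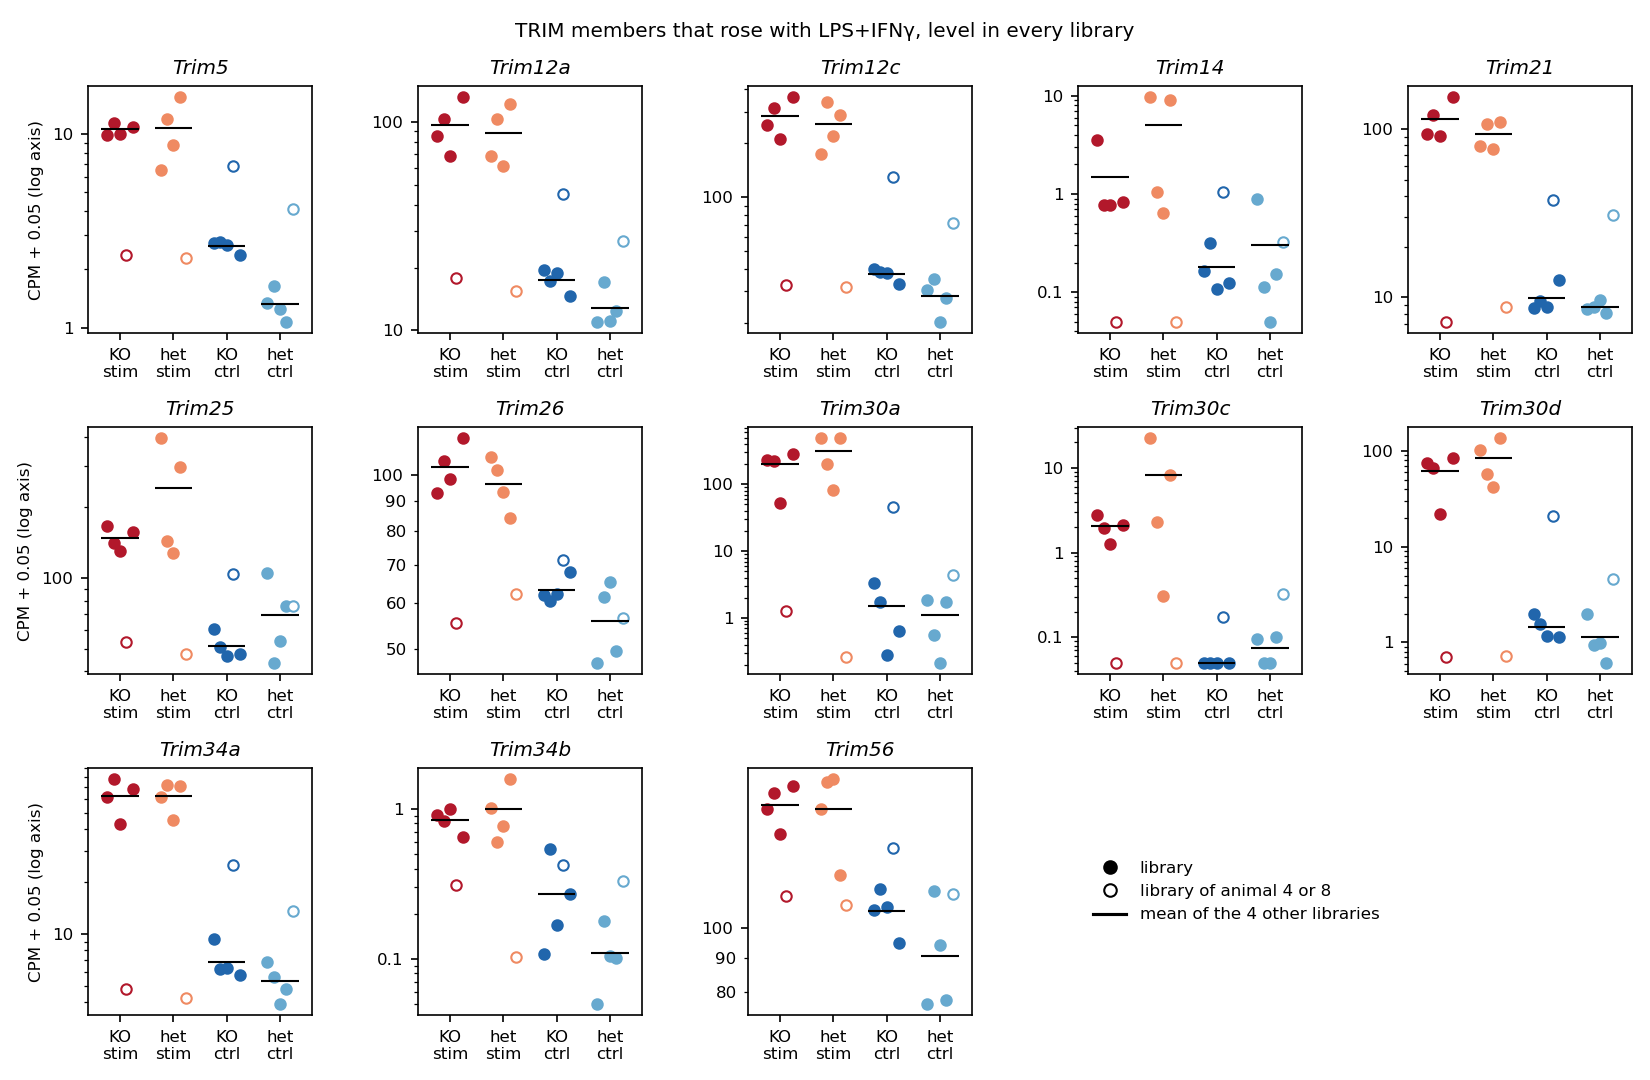
Level of the 13 members that rose in at least 1 genotype over 16 libraries, in every library, as CPM + 0.05 on a log axis. Points are libraries, open points those of animals 4 and 8, and lines the mean of the 4 other libraries of a group. In 12 of the 13 panels every filled stimulated point lies above every filled control point, Trim14 being the exception.

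Outside the cluster, the rising PRY-SPRY members were Trim21, Trim25, Trim26 and, in het cells, Trim14. They are 4 of 17 tested members of that kind in het cells and 3 of 17 in KO cells. Each has a described place in pathogen sensing. Trim21 is a cytosolic receptor for the constant part of antibodies and a ligase that sends antibody-coated virus to the proteasome. Trim25 attaches ubiquitin in the activation of the RNA sensor RIG-I, Trim26 acts on IRF3 and on signalling downstream of the sensors, and Trim14 is an adaptor at mitochondria that lacks a RING finger.

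Trim21 (ENSMUSG00000030966) had the smallest adjusted p of all members in both genotypes over 16 libraries. In stimulated replicates 1 to 5 there were 92.5, 120.2, 90.8, 7.12 and 154 CPM in KO and 79.0, 107, 76.1, 110.4 and 8.75 CPM in het cells. Control replicates 1 to 5 had 8.62, 9.53, 8.70, 37.6 and 12.7 CPM in KO and 8.48, 8.74, 9.62, 8.03 and 30.8 CPM in het cells. The highest of the 8 stimulated libraries was 2.02-fold above the lowest, and these 8 did not overlap the 8 controls outside animals 4 and 8. The log2 fold change was 3.53 ± 0.20 in KO and 3.42 ± 0.20 in het cells (adjusted p = 2.47e-08 and 3.18e-08), against 2.59 ± 0.72 and 2.54 ± 0.72 over 20 libraries (adjusted p = 0.321 and 0.125).

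Trim25 (ENSMUSG00000000275) had a clear control level and rose less steeply. Its stimulated replicates 1 to 5 had 167, 141, 131, 53.5 and 156 CPM in KO and 394, 143, 128, 299 and 47.2 CPM in het cells. Control replicates 1 to 5 had 60.5, 50.7, 46.3, 104 and 47.2 CPM in KO and 105, 43.4, 53.9, 75.7 and 75.8 CPM in het cells. The highest stimulated values, 394 and 299 CPM, came from animals 1 and 9, whose libraries, all het, also had the highest leukocyte and proximal tubule marker sums. The log2 fold change was 1.54 ± 0.34 in KO and 1.79 ± 0.34 in het cells (adjusted p = 0.0114 and 0.00367), and without animals 1 and 9 it was 1.54 ± 0.12 and 1.49 ± 0.17 (adjusted p = 9.05e-06 and 0.000375). Over 20 libraries it was 1.07 ± 0.44 and 1.51 ± 0.44 (adjusted p = 0.465 and 0.136), and without animals 5 and 7 the KO call was lost at 1.57 ± 0.37 (adjusted p = 0.0521), and with the animal as a block in those 12 libraries it passed at 1.58 ± 0.096 (adjusted p = 0.000108).

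Trim26 (ENSMUSG00000024457) rose by a small and even amount. Stimulated replicates 1 to 5 had 93.0, 105, 98.1, 55.5 and 116 CPM in KO and 107, 102, 93.2, 84.1 and 62.2 CPM in het cells, against controls at 61.9, 60.4, 62.2, 71.2 and 68.1 CPM in KO and 47.4, 61.5, 65.2, 49.7 and 56.5 CPM in het cells. The 16 libraries did not overlap between states. Its log2 fold change was 0.71 ± 0.12 in KO and 0.79 ± 0.12 in het cells (adjusted p = 0.00119 and 0.000407), and 0.53 ± 0.17 and 0.68 ± 0.17 over 20 libraries (adjusted p = 0.334 and 0.105).

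Trim14 (ENSMUSG00000039853) stayed low in most libraries. Stimulated replicates 1 to 5 had 3.50, 0.722, 0.726, 0 and 0.775 CPM in KO and 9.64, 0.998, 0.586, 8.98 and 0 CPM in het cells, against controls at 0.116, 0.271, 0.0584, 0.999 and 0.0729 CPM in KO and 0.848, 0.0638, 0, 0.102 and 0.278 CPM in het cells. The 2 highest values again came from animals 1 and 9, and the state ranges overlapped. The het call (4.22 ± 1.16, adjusted p = 0.0393) was lost without animals 1 and 9 (4.44 ± 1.33, adjusted p = 0.108) and when any of het LPS+IFNγ replicates 1 and 4 or het control replicates 2, 3 and 4 was left out (adjusted p up to 0.111). It was also lost without animals 5 and 7 (adjusted p = 0.0783) and with no filter on low counts (adjusted p = 0.0591), and it passed with the animal as a block (4.42 ± 0.59, adjusted p = 0.00338). In KO cells the value was 3.36 ± 1.2 (adjusted p = 0.141), and it passed at 4.11 ± 0.73 (adjusted p = 0.0124) with the animal as a block in 12 libraries and at 3.44 ± 1.16 with DESeq2 (adjusted p = 0.0354). Over 20 libraries it was 1.89 ± 1.28 in KO and 3.88 ± 1.33 in het cells (adjusted p = 0.759 and 0.192).

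Trim56 (ENSMUSG00000043279), a ligase that acts on the DNA-sensing STING and cGAS proteins, was the rising member outside the cluster with no PRY-SPRY domain. Stimulated replicates 1 to 5 had 151, 160.2, 139, 112 and 164 CPM in KO and 152, 166, 168, 120.2 and 108 CPM in het cells, against controls at 107, 115, 108, 132 and 94.8 CPM in KO and 76.6, 114, 94.3, 77.6 and 112 CPM in het cells. The states were separate over 16 libraries. Its log2 fold change was 0.54 ± 0.14 in KO and 0.74 ± 0.14 in het cells (adjusted p = 0.0300 and 0.00300), and 0.39 ± 0.15 and 0.59 ± 0.15 over 20 libraries (adjusted p = 0.416 and 0.105). The KO call was lost when any of KO LPS+IFNγ replicates 1, 2 and 5 or KO control replicates 1, 2, 3 and 5 was left out (adjusted p up to 0.0995), and with no filter on low counts (adjusted p = 0.0504). Without animals 5 and 7 it was lost in KO and het cells (adjusted p = 0.130 and 0.0548), whereas on the same 12 libraries with the animal as a block it passed at 0.60 ± 0.11 and 0.72 ± 0.11 (adjusted p = 0.0150 and 0.00664).

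Over the 8 stimulated and 8 control libraries outside animals 4 and 8, 12 of the 43 tested members had every stimulated library above every control and 0 the reverse. Among all 14630 genes 689 were separate in the first direction and 121 in the second.

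**Figure D3:**
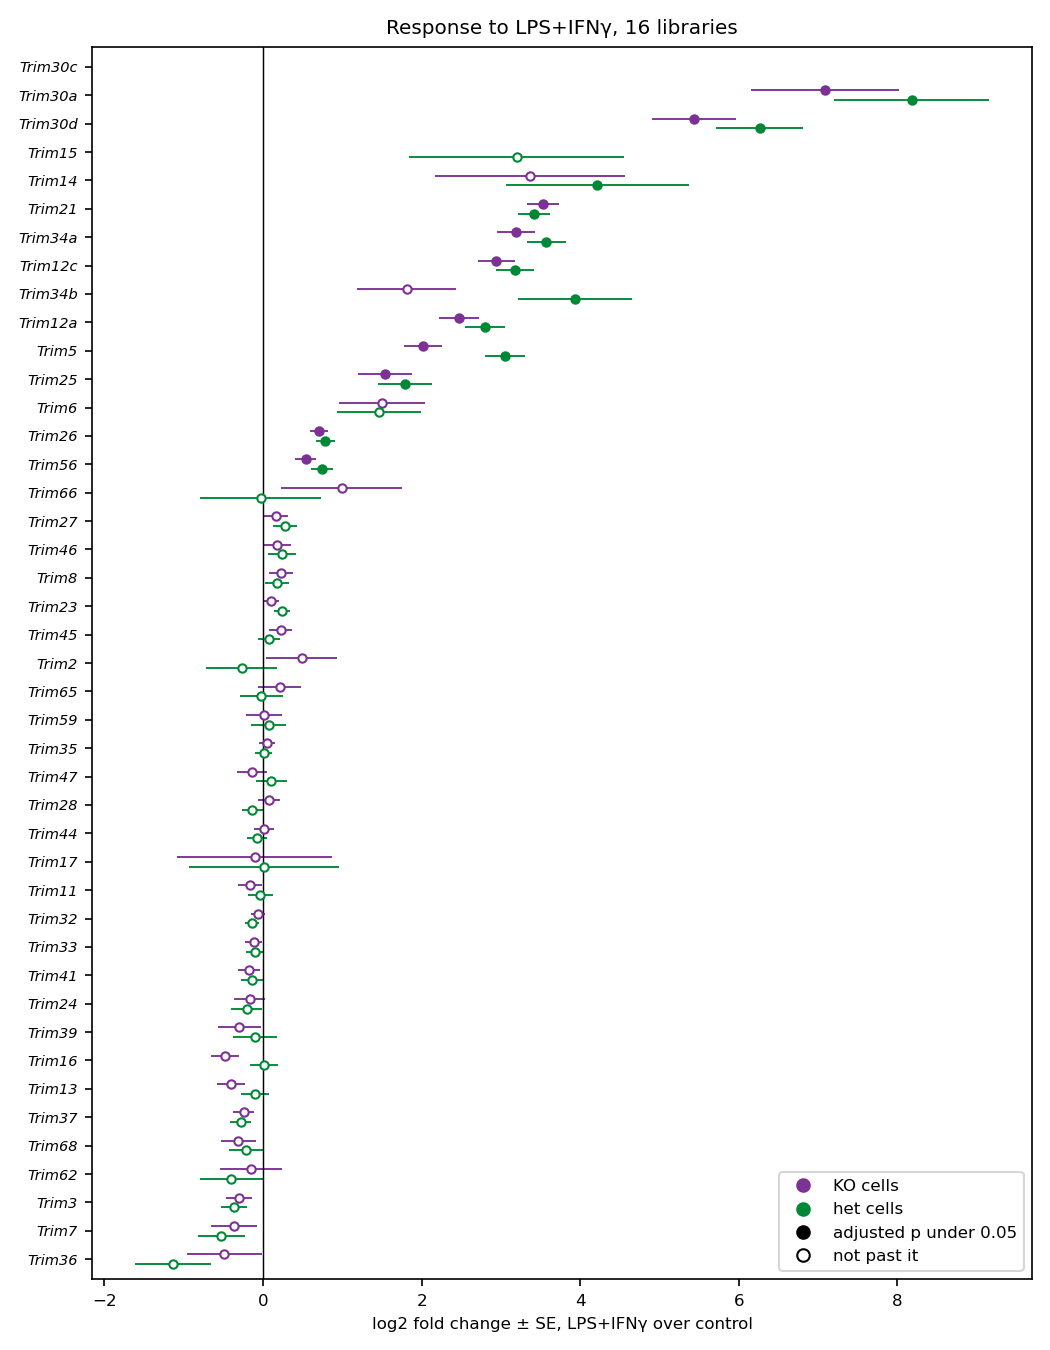
Log2 fold change (± SE) of LPS+IFNγ over control for each tested member in KO and het cells, 16 libraries. Filled points passed the adjusted p of 0.05. Trim30c in both genotypes and Trim15 in KO cells are not drawn because their controls held 2 counts or fewer. The points run from Trim30a at the top to Trim36 at the bottom, and all filled points lie right of 0.

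The promoters of the rising members were read for the DNA letters bound by interferon-activated factors. Entries of 250 bases before and 50 after an annotated start were taken from RefSeq (GRCm38.p6) and matched by symbol for 53 of 68 members, 67 entries in all. In 53 of the 67 entries the first 30 bases after the start lay in a GENCODE M21 transcript of the same gene. Among rising members, the entries of Trim5 and Trim12a and the second start of Trim30a did not pass this check. The core of the interferon-stimulated response element (ISRE), which IRF proteins and the ISGF3 complex bind, was searched on both strands, as GAAA, any 2 bases and GAAA, or as TTTC, any 2 bases and TTTC. The gamma-activated site (GAS) was searched as TTCNNNGAA, which reads the same on both strands. The motifs were counted separately.

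The ISRE core occurred in 3.44% of all 32851 entries. It was present in 8 of the 12 rising members with an entry, namely Trim5, Trim12a, Trim12c, Trim21, Trim26, Trim30a, Trim30d and Trim34a. It was present in 1 of 21 tested members that did not pass the test (Trim2) and in 0 of 20 untested members. Not passing does not mean flat. Trim15, with 120 counts in stimulated KO libraries against 2 in KO controls, is among those that did not pass. A member counted if any of its entries matched, whereas the shares of all entries count each entry, so the units differ. Trim25, Trim30c, Trim34b and Trim56 rose and had no match in this window. GAS letters occurred in 8.3% of all entries, in 1 of 12 rising members (Trim30c), in 3 of 21 tested members that did not pass (Trim15, Trim45 and Trim46) and in 2 of 20 untested members (Trim31 and Trim38). Members that arose by duplication share promoter sequence and are not independent matches. A match describes letters and does not show binding.

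The matching windows are printed to show which versions of the core the members carry: 1 shared by Trim5, Trim12a and Trim12c, another shared by Trim30a and Trim30d, and a further one in Trim34a. Trim6, Trim30b, Trim30c and Trim34b, of the same cluster, had no match. The windows are shown with the ISRE core in capitals and lower case for the bases around it.
Trim5, chr7:104288136-104288165, minus strand: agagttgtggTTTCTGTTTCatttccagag
Trim12a, chr7:104315466-104315495, minus strand: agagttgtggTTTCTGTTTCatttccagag
Trim12c, chr7:104353359-104353388, minus strand: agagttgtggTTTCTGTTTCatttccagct
Trim30a, chr7:104465210-104465239, minus strand: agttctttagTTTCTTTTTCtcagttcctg
Trim30a, second start, chr7:104446104-104446133, minus strand: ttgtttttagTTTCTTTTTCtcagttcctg
Trim30d, chr7:104507871-104507900, minus strand: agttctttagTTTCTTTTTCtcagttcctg
Trim34a, chr7:104244457-104244486, plus strand: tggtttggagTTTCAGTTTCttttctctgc
Trim21, chr7:102565447-102565476, minus strand: ctgagagGAAACTGAAAGTGAAAtttggac
Trim26, chr17:36836979-36837008, plus strand: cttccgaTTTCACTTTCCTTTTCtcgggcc
Trim2, chr3:84212791-84212820, minus strand: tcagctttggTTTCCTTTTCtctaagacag

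The GAS letters of Trim30c, the rising member with that motif, are in capitals here, 62 bases before the start.
Trim30c, chr7:104400822-104400850, minus strand: cgtgactaaaTTCTTAGAAgcttagtgac

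Trim5 and Trim12a carried the same 30 bases, and so did the first start of Trim30a and Trim30d. Trim21 and Trim26 each held 2 overlapping cores, written as 1 run of capitals. Counted from the annotated start, the first base of the match was at −49 in Trim5, +11 in Trim12a, −29 in Trim12c, −36 and +3 at the 2 starts of Trim30a, −41 in Trim30d, +11 in Trim34a, +14 in Trim21, −160 in Trim26 and +29 in Trim2. The positions in Trim5 and Trim12a and at the second start of Trim30a are less certain, since those starts did not pass the transcript check. Trim2 is the member with the core whose log2 fold change was 0.49 ± 0.45 in KO and −0.27 ± 0.44 in het cells, not past the threshold (adjusted p = 0.692 and 0.784). The other listed starts of Trim2 had no core.

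The 250 bases before the start are shown whole for Trim30a and Trim12c, which carry different versions of the core. Both genes had counts in every library, and a link between the version of the core and the level was not tested. The core is in capitals.
Trim30a, chr7:104465194-104465443, minus strand: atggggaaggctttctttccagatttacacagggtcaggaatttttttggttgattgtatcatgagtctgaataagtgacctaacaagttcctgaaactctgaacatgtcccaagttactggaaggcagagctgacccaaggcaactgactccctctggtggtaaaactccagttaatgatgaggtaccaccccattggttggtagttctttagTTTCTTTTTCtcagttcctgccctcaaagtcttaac
Trim12c, chr7:104353350-104353599, minus strand: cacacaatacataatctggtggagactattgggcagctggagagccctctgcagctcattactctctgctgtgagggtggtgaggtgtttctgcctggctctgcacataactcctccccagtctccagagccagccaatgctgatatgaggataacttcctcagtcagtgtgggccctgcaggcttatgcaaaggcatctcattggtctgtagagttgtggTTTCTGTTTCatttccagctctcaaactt

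**Figure D4:**
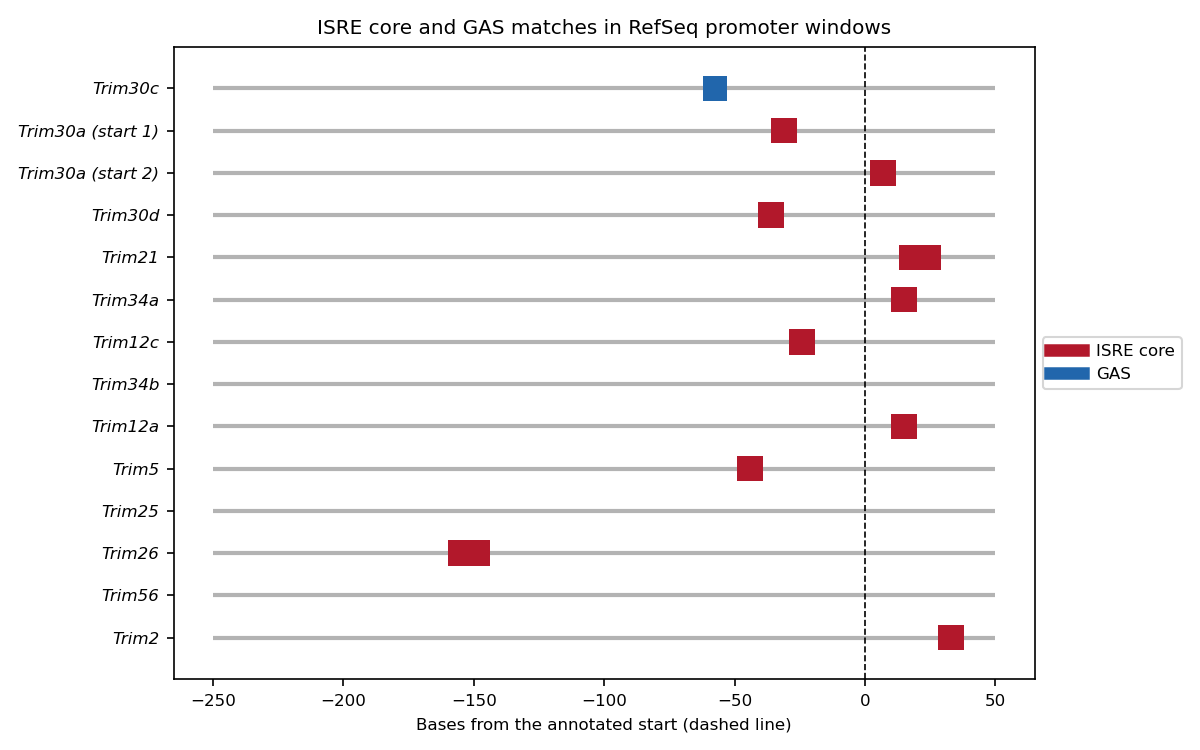
Position of ISRE core and GAS matches in the RefSeq promoter windows (grey lines, 250 bases before to 50 after the start) of the 12 rising members with an entry and of Trim2. Matches lie between −62 and +29 of the start except in Trim26, at −160, and Trim25, Trim34b and Trim56 show none.

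The tested members that did not pass in either genotype numbered 30. In het cells the 30 uncalled members ran from −1.13 to 3.20 on the log2 scale, with 26 of them within 0.5 of 0. In KO cells the 32 uncalled members ran from −0.49 to 5.54, with 27 within 0.5 of 0. Their widest values belonged to thinly counted genes. Trim15 had 120 counts in stimulated KO libraries against 2 in controls, a ratio of 58.0 with an exact 95% interval of 15.7 to 485, yet its stimulated KO libraries ran from 0.179 to 4.82 CPM and it did not pass (adjusted p = 0.0790 in KO and 0.195 in het cells by edgeR). Without animals 1 and 9, which gave het libraries only, its adjusted p in KO cells was 0.0435 by edgeR on the same KO libraries.

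The 4 chromatin regulators with a PHD finger and a bromodomain all stayed uncalled. Trim28, the corepressor that KRAB zinc-finger proteins recruit to silence retroelements, had 356, 299, 294, 301 and 238 CPM in KO and 245, 308, 305, 262 and 302 CPM in het stimulated replicates 1 to 5, against controls at 313, 289.8, 268, 309 and 254 CPM in KO and 304, 306, 359.7, 257 and 317 CPM in het cells. The states overlapped, with log2 fold changes of 0.08 ± 0.14 in KO and −0.13 ± 0.14 in het cells (adjusted p = 0.870 and 0.644). Trim24, a nuclear receptor coregulator, changed by −0.17 ± 0.19 and −0.21 ± 0.19, and Trim33, which regulates SMAD signalling, by −0.12 ± 0.11 and −0.10 ± 0.11, none past the threshold. Trim24 ran from 28.5 to 54.4 CPM in stimulated and 33.8 to 51.4 CPM in control libraries, and Trim33 from 49.7 to 70.3 CPM in stimulated and 58.0 to 80.1 CPM in control libraries (8 each). Trim66, low at 0.162 to 2.35 CPM, had log2 fold changes of 0.99 ± 0.77 and −0.03 ± 0.76.

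Among the NHL members, 0 of 3 tested were called. Trim32, a ligase whose mutations cause limb-girdle muscular dystrophy in humans, changed by −0.06 ± 0.09 in KO and −0.14 ± 0.09 in het cells and kept within 43.2 to 51.7 CPM in the 8 stimulated and 45.2 to 56.8 CPM in the 8 control libraries. Trim3 changed by −0.31 ± 0.16 and −0.36 ± 0.16 (adjusted p = 0.396 and 0.229). Without animals 1 and 9, Trim3 passed as lower in KO cells at −0.30 ± 0.083 (adjusted p = 0.0353, edgeR). These animals gave het libraries only, so the KO libraries were the same. The estimate hardly moved, and the SE, which uses the spread shared by all groups, was smaller. Trim2, a ligase that binds neurofilament light chain, was highest in animals 1 and 9. It had 34.6, 24.1, 44.1, 31.5 and 31.9 CPM in KO and 44.2, 22.9, 25.7, 83.6 and 24.2 CPM in het stimulated replicates 1 to 5, against controls at 29.0, 22.1, 21.4, 28.9 and 23.5 CPM in KO and 80.2, 16.7, 41.2, 74.4 and 34.5 CPM in het cells. The values above 50 CPM were all from animals 1 and 9, whose proximal tubule marker sums were 224 and 262 CPM in stimulated and 624 and 537 CPM in control libraries, against 25.2 to 144 CPM elsewhere.

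Of the 8 members with a COS box 2 were tested and 4 were silent. Trim46, which organises microtubules at the start of the axon, changed by 0.17 ± 0.18 in KO and 0.24 ± 0.18 in het cells. Trim36, a microtubule-linked ligase, had the lowest het value, −1.13 ± 0.48 (adjusted p = 0.195), and −0.49 ± 0.47 in KO cells, at 0.417 to 2.01 CPM in stimulated and 1.33 to 3.44 CPM in control libraries.

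The remaining PRY-SPRY members and those with other ends were mostly flat. Trim27, a ligase and transcriptional repressor, had 34.5 to 62.7 CPM in the 8 stimulated and 35.2 to 46.9 CPM in the 8 control libraries and changed by 0.17 ± 0.15 in KO and 0.28 ± 0.15 in het cells. Trim8, which adds ubiquitin to the kinase TAK1, had 82.9 to 152 CPM in stimulated and 82.3 to 110.1 CPM in control libraries and changed by 0.22 ± 0.15 and 0.18 ± 0.15. Trim35 changed by 0.05 ± 0.10 and 0.01 ± 0.10, Trim44 by 0.01 ± 0.13 and −0.08 ± 0.13, and Trim37, a ligase that limits centriole assembly, by −0.24 ± 0.13 and −0.28 ± 0.13. All of these overlapped between states.

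Among members with negative estimates that did not pass in the 16 libraries, Trim16 was at −0.49 ± 0.18 and Trim13 at −0.41 ± 0.18 in KO cells (adjusted p = 0.152 and 0.255), and at 0.02 ± 0.18 and −0.11 ± 0.18 in het cells (adjusted p = 0.970 and 0.785). Trim7, a PRY-SPRY ligase that binds glycogenin, is described because it passed in a fit with the animal as a block, and was chosen after its values were seen. It had 20.8, 14.7, 25, 22.5 and 19.1 CPM in KO and 21.6, 15.0, 17.8, 41.9 and 28.7 CPM in het stimulated replicates 1 to 5, against controls at 27.7, 26.5, 22.7, 18.4 and 25.7 CPM in KO and 32.3, 26.3, 28.5, 51.5 and 22.6 CPM in het cells. Its log2 fold change of −0.37 ± 0.29 in KO and −0.53 ± 0.29 in het cells did not pass (adjusted p = 0.630 and 0.335). With the animal as a block, in the 12 libraries of animals that have both states in 1 genotype, it passed as lower, at −0.51 ± 0.13 in KO and −0.55 ± 0.13 in het cells (adjusted p = 0.0480 and 0.0294, edgeR), where 4.47% and 6.9% of all genes were called lower. That fit called 13 members in KO cells and 14 in het cells, all higher but Trim7, against 11.3% and 16.2% of all genes.

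Silent members numbered 15, of which Trim31, Trim42, Trim43b, Trim50, Trim52 and Trim75 had 0 counts in all 20 libraries. The other 9 were Trim9, Trim10, Trim40, Trim43a, Trim43c, Trim55, Trim58, Trim60 and Trim63. Several are known from other tissues: Trim55 and Trim63 from striated muscle, Trim10 and Trim58 from red cell precursors, Trim9 from neurons, Trim50 from gastric parietal cells and Trim31 and Trim40 from gut epithelium. By the definition of silent, none exceeded 3 counts in any library, stimulated ones included.

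The 10 thinly counted members were Trim29, Trim30b, Trim38, Trim54, Trim61, Trim67, Trim69, Trim71, Trim72 and Trim80. Over 4 libraries a group, Trim72, a muscle membrane repair protein, had 31 counts in stimulated KO and 27 in stimulated het libraries, against 3 in KO and 6 in het controls. Trim69 had 22 and 25 counts in stimulated KO and het libraries, against 9 in each control group. Trim67, a neuronal member, had 6 and 2 counts in stimulated KO and het libraries, against 7 and 24 in controls. These 3 were not tested and were named after their counts were seen.

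No difference between genotypes passed the test for any member. Over 16 libraries, 0 of 43 members were called for KO against het in stimulated cells, 0 in control cells and 0 for the difference in response, and 0% of all genes were called in each of the 3. Unadjusted p was under 0.05 for 1 member in stimulated cells, 3 in control cells and 2 for the difference in response, against 5.38%, 5.29% and 1.53% of all genes. Over 20 libraries the counts were 0, 1 and 0 members, against 2.51%, 3.43% and 0.947% of all genes. DESeq2 called 0 members in these 3 comparisons with either set of libraries. Among all genes it called 0% over 16 libraries, and over 20 libraries 0% in stimulated cells, 0.0137% in control cells (0.00686% higher, 0.00686% lower) and 0.00686% for the difference in response (0.00686% lower).

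Over 16 libraries the smallest p of these comparisons belonged to Trim5 in control cells, and over 20 libraries to Trim2 in control cells (−0.99 ± 0.38, adjusted p = 0.999 by edgeR). Without animals 4 and 8 the level of Trim5 averaged higher in KO controls, with a log2 difference of 1.02 ± 0.24 (KO over het, adjusted p = 0.892 by edgeR). In stimulated cells the difference for Trim5 was −0.01 ± 0.23, and its response differed by −1.03 ± 0.33 (KO minus het, adjusted p = 1 by edgeR). With all 20 libraries the control difference of Trim5 was 0.90 ± 0.52 (adjusted p = 0.999). Reads shared with Trim12c limit this value, and the control difference of Trim12c was 0.40 ± 0.22 (adjusted p = 0.892).

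Trim2 and Trim34b were the other members with p under 0.05 in control cells. Trim2 was lower in KO controls by the estimate, at −1.15 ± 0.45 (adjusted p = 0.892), and its high het values were those of animals 1 and 9 named above. Trim34b was at 1.89 ± 0.75 (adjusted p = 0.892), from at most 0.487 CPM in any control library. In stimulated cells Trim30c was at −2.05 ± 0.93 (adjusted p = 0.748) and Trim25 at −0.70 ± 0.33 (adjusted p = 0.748), again with the highest het values in animals 1 and 9. Trim21, which responded to stimulation, differed by 0.30 ± 0.18 in stimulated and 0.18 ± 0.19 in control cells, and Trim28, which did not pass for stimulation, by 0.09 ± 0.14 and −0.13 ± 0.14. A p that misses the threshold does not show that the genotypes were alike.

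**Figure D5:**
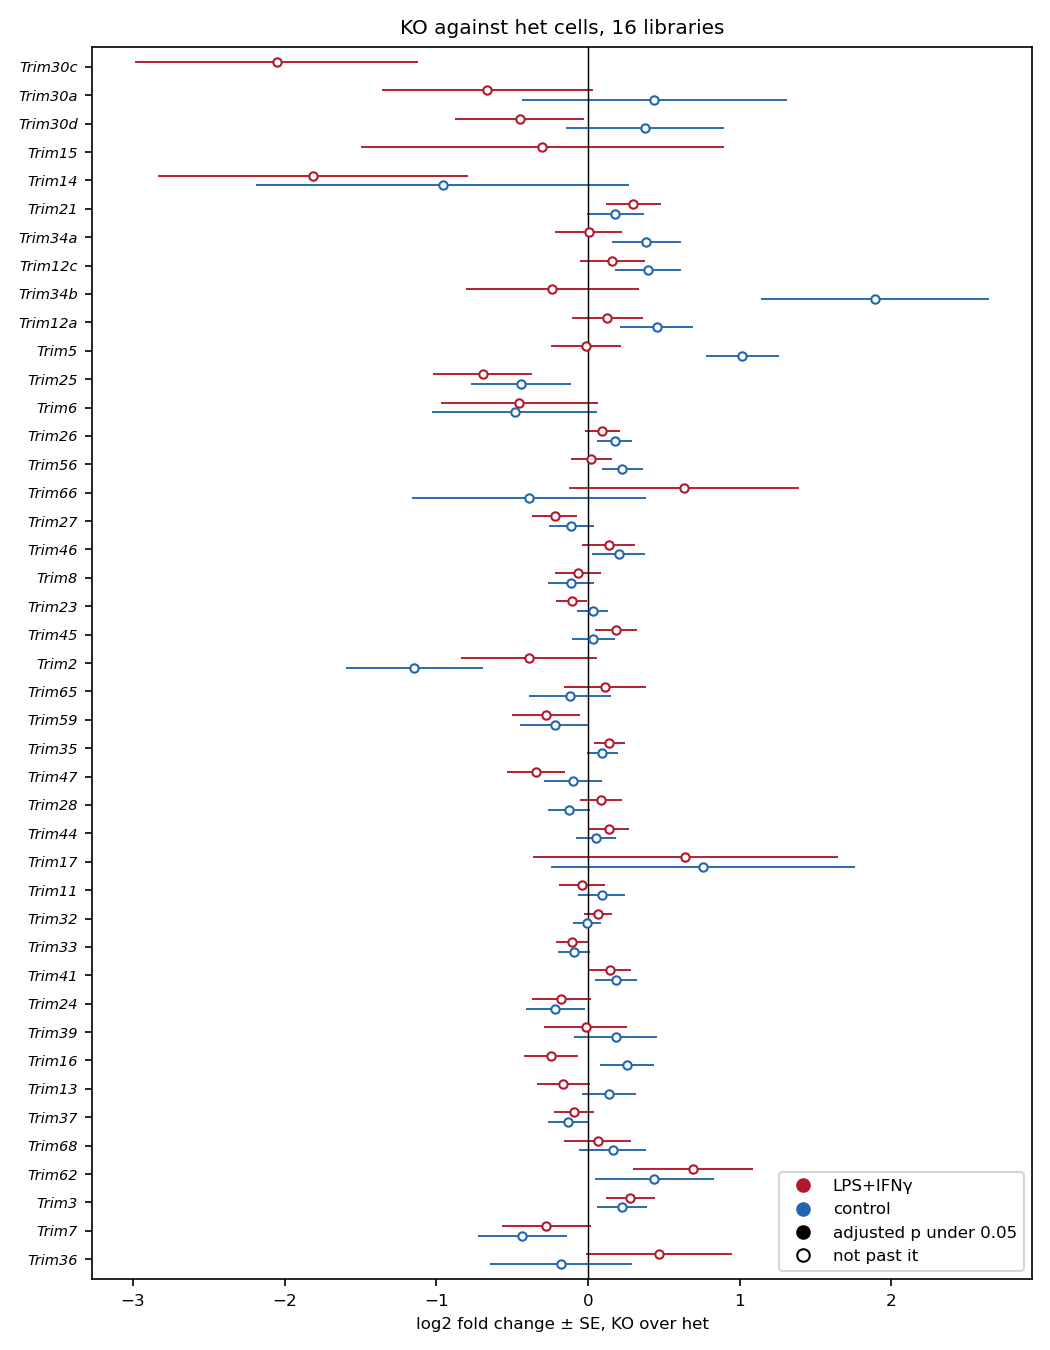
Log2 fold change (± SE) of KO over het for each tested member in stimulated and control cells, 16 libraries. No point passed the adjusted p of 0.05, so all are open. Trim30c and Trim15 in control cells are not drawn because of their low counts. Trim5 and Trim34b in control cells lie farthest to the right, at 1.02 and 1.89.

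Genes that work with TRIM proteins were read from lists made for this purpose with earlier results of these data known. Of 17 tested genes of the nucleic acid sensing pathways that TRIM ligases modify, 7 rose in KO cells and 8 in het cells over 16 libraries, and 0 fell. Among all genes tested 4.81% rose in KO and 5.67% in het cells, and on lists this short a count of 1 is near that share. Ddx58, which encodes RIG-I, changed by 2.61 ± 0.27 in KO and 2.83 ± 0.27 in het cells on the log2 scale, Ifih1, which encodes the RNA sensor MDA5, by 3.6 ± 0.39 and 3.57 ± 0.39, and the interferon transcription factor Irf7 by 5.48 ± 0.70 and 6.14 ± 0.72. The median of the list was 0.64 in KO and 0.71 in het cells. Of 15 tested partners of Trim28, 0 changed in KO cells and 2 rose in het cells, Atf7ip, a cofactor of the methyltransferase SETDB1, at 0.50 ± 0.12, and Morc3, a nuclear ATPase, at 0.56 ± 0.16. Of 10 selective autophagy genes 1 rose in each genotype, the cargo receptor Sqstm1, at 0.72 ± 0.17 in KO and 0.68 ± 0.17 in het cells. Of 8 tested genes with a tripartite motif or related domains but another symbol, 1 rose in each, Pml, the scaffold of nuclear bodies, at 1.04 ± 0.22 in KO and 1.41 ± 0.22 in het cells. Over 20 libraries 0 genes of these 4 lists were called in either genotype.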

How the data were processed

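The members and gene lists were chosen with earlier results of these data known, and the structural groups were assigned from background knowledge with values known. Per the labels' protocols, total RNA was made into directional libraries. The deposited table holds whole-number estimated counts for 55891 Ensembl gene IDs, and rounding changed none. Per the submitters' processing notes, FastQC 0.11.9, Salmon 1.10.2, R 4.4.1, DESeq2 1.45.3 and the build GRCm39 were used, without a stated role. No source used here states the strand setting, the treatment of multi-mapping reads or the summing to genes. Symbols came from GENCODE M21 (GRCm38), used for names only. 0 per-sample columns were left unused.

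Counts were tested in R 4.3.3 with edgeR 4.0.16 (TMM, filterByExpr, robust quasi-likelihood F test, 4 group means in 1 model, Benjamini-Hochberg over all genes tested), after a check on simulated counts. The SE is the log2 fold change over the square root of F. Both the 20 libraries as labelled and the 16 without animals 4 and 8 were fitted. Per-library values are given for members past the threshold and for a fixed set of others. Alternatives were DESeq2 1.42.0, its size factors, other filters, leaving out each library, animals 5 and 7, or animals 1 and 9 (added after seeing the data), and the animal as a block. The 2 libraries of an animal deviated from their group means together (r = 0.168 to 0.623) in 8 animals and not in animals 4 (−0.206) and 8 (−0.298). Replicate numbers do not pair samples, since numbers 2 and 3 join different animals. Intervals and floors (3 counts, 95%) cover counting error only. 1 gene of the stimulus check is not reported here.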

Additional observations from a re-analysis of the deposited data

Results flagged for a closer look

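Across 19 members and the 4 groups of 5 libraries (76 groups of values), 16 values stood apart from the rest of their group by Dixon's test at the 95% level. Chance alone gives about 1 in 20 in independent groups. The members were read in the same libraries, so the groups are not independent and the count cannot be set against that rate. Of the flagged values, 15 were in libraries of animals 4 and 8. These animals had already been singled out by interferon-induced genes, so the flags are no separate evidence about them. In KO control replicate 4, the highest of its group, levels were 6.74 CPM for Trim5, 44.8 CPM for Trim12a, 130 CPM for Trim12c, 0.999 CPM for Trim14, 37.6 CPM for Trim21, 104 CPM for Trim25, 46.5 CPM for Trim30a, 0.125 CPM for Trim30c, 20.8 CPM for Trim30d and 24.7 CPM for Trim34a. In het control replicate 5, the highest of its group, levels were 4.06 CPM for Trim5, 72.0 CPM for Trim12c, 30.8 CPM for Trim21 and 0.278 CPM for Trim30c. In KO LPS+IFNγ replicate 4 Trim5 was the lowest of its group at 2.33 CPM. The value outside these animals was Trim14 in KO LPS+IFNγ replicate 1, the highest of its group at 3.50 CPM, where the next was 0.775 CPM. The 0.125 CPM of Trim30c in KO control replicate 4 stood against 0 CPM in the rest of its group. It lies below the 0.134 to 0.219 CPM that a count of 0 allows.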

How the results depend on the processing

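Over 20 libraries, where 0 members were called, DESeq2 called 5 for stimulation in KO and 12 in het cells, leaving out animals 4 and 8 gave 11 and 13, and leaving out 1 library at a time gave 0 to 4 and 0 to 12, the highest without KO LPS+IFNγ replicate 4 and without het LPS+IFNγ replicate 5. Over 16 libraries the counts were 11 in KO and 13 in het cells. They were 10 to 11 and 12 to 13 with 1 library left out, and 9 and 11 without animals 5 and 7. Without animals 1 and 9 they were 14 and 10. In that run 2 het libraries a state remain, the KO libraries are unchanged and Trim3 is lower in KO cells. Taking the animal as a replicate block, 12 libraries gave 13 and 14, and 20 libraries as labelled (without animals 5 and 7) gave 0 in each. Another scaling, no filter on low counts, a stricter filter (CPM of 1 or more in 10 libraries) and DESeq2 gave 10 to 13. The share of all genes called is not given here for runs with a library, animals 5 and 7 or animals 1 and 9 left out. It is also not given for the other scaling and filters. These counts therefore do not separate a change in TRIM members from a change in calls among all genes. Comparisons of KO with het kept 0 calls under each alternative run.

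Uncalled differences between KO and het in stimulated cells changed sign, and the cause was not tested. With 1 library left out, the log2 values over 20 libraries ran from −0.27 to 0.27 for Trim5, −0.45 to 0.27 for Trim34b and −0.42 to 0.17 for Trim2. Over 16 libraries they ran from −0.19 to 0.21 for Trim5, −0.43 to 0.087 for Trim34b and −0.61 to 0.11 for Trim2. Without animals 1 and 9 they were 0.22, 0.66 and 0.46 over 20 libraries and 0.024, 0.33 and 0.47 over 16 libraries, for the 3 genes in that order.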
